A study of Homo sapiens with 21 samples.

Results

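The BCL2 family genes described here are 4 that code for survival proteins (BCL2, BCL2L1, BCL2L2 and MCL1), 2 for pore-forming effectors (BAX and BAK1) and 4 for BH3-only proteins (BBC3, PMAIP1, BCL2L11 and BID). They were chosen by gene symbol: the 10 symbols matched 10 of the 16383 genes in the deposited table, and all 10 passed the filter on low values. RNA was measured by poly(A) sequencing in 21 libraries, 3 in each of 7 groups, of IMR90 cells, a long-established fibroblast line from human lung. Cells of the proliferating group had no irradiation and no siRNA. The other 6 groups were irradiated to make the cells senescent, transfected with 5 nM siRNA on days 4 and 7 and harvested on day 10. Of these, 2 received the non-targeting siRNAs NT3 or NT4, and 4 received siRNA to lower CCND1, CDK4 or CDK6 alone, or both kinases at once (the dual knockdown). CCND1 codes for cyclin D1, the partner that activates the kinases CDK4 and CDK6. The labels give the genotype of the proliferating, NT3 and NT4 cells as WT. Because the proliferating cells lacked both treatments, irradiation and transfection cannot be told apart in any comparison with them. The labels name 1 siRNA per target and do not say that replicates were separate cultures, so p-values measure the spread between these libraries, which may be technical.

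Proteins of this family decide whether the outer membrane of the mitochondrion is opened, the committing step of the intrinsic pathway of cell death. BAX and BAK1 form the pores, BCL2, BCL2L1 (BCL-XL), BCL2L2 (BCL-W) and MCL1 hold them in check, and the BH3-only proteins carry death signals by binding the survival proteins or by activating the effectors. Senescent cells have stopped dividing for good yet withstand death signals, and drugs that block BCL2, BCL-XL and BCL-W can kill many kinds of them. Much of the control of these proteins lies in their stability, location and binding, which RNA levels do not show.

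Library depth ranged from 12892442 to 21822152 reads in the listed genes. The targeted RNAs were low where their siRNA was given: CCND1 was at 11.8% of the control mean in its knockdown, CDK4 at 8.67% and CDK6 at 16.4% in the single knockdowns, and CDK4 at 9.41% and CDK6 at 20.6% in the dual knockdown. They also moved elsewhere (limma, adjusted p under 0.05). CCND1 was higher in CDK4 (log2 difference 0.31), CDK6 (0.53) and dual knockdown (0.53), and with NT4 than with NT3 (0.54). CDK4 was lower in CCND1 (-0.18) and CDK6 knockdown (-0.39). CDK6 was higher in CDK4 knockdown (0.35) and did not pass in CCND1 knockdown (0.13). Against the proliferating libraries, the 6 control libraries had higher CDKN1A, which codes for the cell cycle inhibitor p21 (log2 difference 2.55), and lower LMNB1 (-4.02) and MKI67 (-3.63), a lamin and a proliferation marker. All 10 fibroblast markers had a mean normalised read count of at least 10. Of 14 epithelial, endothelial and leukocyte markers, 13 stayed at or below 47.8 in every library, and the exception was CD68, a lysosomal gene that fibroblasts also express. NT3 replicate 3 stood apart: its SD from the group mean was 0.34 on the log2 scale, against 0.19 to 0.26 in the other 20 libraries. Replicate numbers here are names only.

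Among the survival genes, MCL1 and BCL2L1 were the most abundant and BCL2 was scarce. Levels of different genes were compared per kilobase of the canonical transcript, since long transcripts give more reads, with the transcripts in use in these cells not known. In the 6 control libraries, the senescent cells given non-targeting siRNA, MCL1 stood at 1736 normalised reads per kilobase, BCL2L1 at 1444, BCL2L2 at 588 and BCL2 at 4.49. The effector BAX stood at 2048 per kilobase and its relative BAK1 at 212. Among the BH3-only genes PMAIP1 led with 1440.1, ahead of BID with 555, BBC3 with 153 and BCL2L11 with 16.9. BAX was the highest member per kilobase in proliferating cells too, at 2172, and BCL2L11, at 10.4, was the lowest there. BCL2, at 15.1 per kilobase, was the lowest but 1 in proliferating cells. In reads, BCL2 had 10 to 55 per irradiated library and 93 to 123 per proliferating library, and BCL2L11 had as few as 33 in a library, so both carry more counting error than the other members.

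Per GENCODE 44 (GRCh38) all 10 are protein-coding genes. The survival genes lie at chr18:63123346-63320128 (BCL2, minus strand), chr20:31664452-31723989 (BCL2L1, minus), chr14:23298790-23311751 (BCL2L2, plus) and chr1:150560895-150579738 (MCL1, minus). The effectors lie at chr19:48954815-48961798 (BAX, plus) and chr6:33572547-33580293 (BAK1, minus). The BH3-only genes lie at chr19:47220822-47232766 (BBC3, minus), chr18:59899996-59904305 (PMAIP1, plus), chr2:111119378-111168444 (BCL2L11, plus) and chr22:17734138-17774770 (BID, minus). Exons of BCL2L1 share 41.3% of their bases with the antisense RNA ABALON, those of BCL2L2 share 16.8% with the readthrough gene BCL2L2-PABPN1 on the same strand, and those of BCL2L11 share 10.8% with the antisense RNA MIR4435-2HG. Neither the strand setting nor the handling of shared reads is given in the sources used here, so the values of these 3 genes are uncertain to that extent. Isoforms with opposite roles, such as the long and short forms of BCL2L1, are counted together.

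The start-site regions of PMAIP1, BBC3 and BAK1 are shown because these genes of the death side fell most clearly with loss of CDK6 or differed between the control siRNAs in the results that follow. Each is the RefSeq window (GRCh38.p14) from 250 bases before to 50 bases after the annotated start, given 5′ to 3′ on the gene's strand, with motif matches in capitals. PMAIP1 lies at chr18:59899746-59900045 (plus strand), BBC3 at chr19:47232618-47232917 (minus) and BAK1 at chr6:33580227-33580526 (minus).
PMAIP1: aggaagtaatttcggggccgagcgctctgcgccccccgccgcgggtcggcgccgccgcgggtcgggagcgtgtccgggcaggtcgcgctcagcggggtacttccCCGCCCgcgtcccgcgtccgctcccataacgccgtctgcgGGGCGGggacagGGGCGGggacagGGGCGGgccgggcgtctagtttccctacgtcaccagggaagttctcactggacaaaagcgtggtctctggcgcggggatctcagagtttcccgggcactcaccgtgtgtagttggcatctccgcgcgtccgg
BBC3: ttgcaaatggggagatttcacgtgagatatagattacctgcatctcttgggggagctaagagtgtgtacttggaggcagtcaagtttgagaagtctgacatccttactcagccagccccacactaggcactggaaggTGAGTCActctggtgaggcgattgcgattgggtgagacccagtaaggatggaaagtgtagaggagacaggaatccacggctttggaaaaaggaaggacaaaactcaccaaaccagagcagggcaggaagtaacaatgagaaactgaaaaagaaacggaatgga
BAK1: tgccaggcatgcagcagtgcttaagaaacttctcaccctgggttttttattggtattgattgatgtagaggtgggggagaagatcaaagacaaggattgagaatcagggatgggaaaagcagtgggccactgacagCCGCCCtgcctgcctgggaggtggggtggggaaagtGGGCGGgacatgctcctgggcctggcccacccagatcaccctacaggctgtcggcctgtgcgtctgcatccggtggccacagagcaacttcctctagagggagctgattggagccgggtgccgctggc
The capitals in the PMAIP1 window mark 4 GC boxes (GGGCGG on either strand), the binding motif of SP-family factors, of which 45% of all 35116 promoter windows hold at least 1. In the BBC3 window they mark 1 AP-1 motif (TGANTCA), 113 bases before the start, and 7.71% of all windows hold one. In the BAK1 window they mark 2 GC boxes. None of the 3 windows held the CRE motif TGACGTCA (in 1.85% of all windows) or an E2F motif, searched as TTTCCCGC, TTTCGCGC, TTTGGCGC and TTTGCCGC (3.31%). RefSeq windows were matched for 8 of the 10 members, the exceptions being MCL1 and BCL2L2. A match is a stretch of letters and says nothing of binding in these cells.

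Senescent control cells had more RNA of 8 members and less of 1 than proliferating cells, so 9 of 10 passed the test. Of the 11579 tested genes 68.6% passed in that comparison (32.6% higher and 36.1% lower), so a call is the usual outcome for a gene here. With every library centred on its median gene, 4614 genes were higher and 3355 lower, against 3769 and 4176 without centring. The members' median log2 difference was 0.72, against -0.03 over all tested genes. Of the survival genes BCL2L1, BCL2L2 and MCL1 rose, and BCL2 fell. BCL2L2 had the largest rise of the members: it read 856, 893 and 873 in the proliferating libraries, 2085, 2161 and 2018 with NT3 and 1961, 2187 and 2025 with NT4 (log2 difference 1.24, SE 0.04, adjusted p = 6.25e-16). BCL2L1 read 2062, 1924 and 2043 in proliferating cells, 3585, 3663 and 3879 with NT3 and 3720.5, 3722 and 3725 with NT4 (0.89, SE 0.04, adjusted p = 1.67e-14). For both genes every control library lay above every proliferating library, as it did for 54.1% of tested genes in one direction or the other. MCL1, whose short-lived product guards against BAK1 and several BH3-only proteins, rose less, from a mean of 5185 ± 111.7 (SD, n = 3) to 6857 ± 269 (SD, n = 6; log2 difference 0.40, SE 0.04, adjusted p = 3.87e-08). BCL2 went the other way, from 107.4, 98.96 and 104.5 in proliferating cells to 26.0, 21.3 and 12.1 with NT3 and 61.2, 34.1 and 30.8 with NT4 (-1.87, SE 0.23, adjusted p = 2.45e-07). Its highest control library was NT4 replicate 1 and its lowest NT3 replicate 3, and all 6 lay below the proliferating range.

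The effectors differed from each other in the same comparison. BAK1 read 317, 377 and 353 in proliferating cells, 509, 544 and 508 with NT3 and 381, 409.7 and 414 with NT4, a rise whose size depended on the control siRNA (log2 difference 0.39, SE 0.07, adjusted p = 4.56e-05). BAX read 1849, 1622 and 1710.4 in proliferating cells, 1519.8, 1583 and 2132 with NT3 and 1515, 1641 and 1377 with NT4, and its difference did not pass the test (-0.097, SE 0.09, adjusted p = 0.357, 95% interval -0.29 to 0.09). NT3 replicate 3 was the highest of all 21 libraries for BAX, and without it BAX passed as lower (-0.17, adjusted p = 0.0248). With median centring the BAX difference was 0.016. That centring raised the median of all tested genes in this comparison from -0.03 to 0.09. All 4 BH3-only genes rose. PMAIP1, which codes for NOXA, the BH3-only protein that targets MCL1, went from 1473, 1612 and 1499 to 2939.9, 2927 and 3074 with NT3 and 2583, 2507 and 2378 with NT4 (0.83, SE 0.05, adjusted p = 8.76e-12). BBC3, which codes for PUMA, a BH3-only protein that binds every survival protein of the family, went from 139, 136 and 128 to 236, 245 and 386 with NT3 and 225, 325 and 283 with NT4 (1.05, SE 0.15, adjusted p = 1.52e-06). These control libraries lay above all 3 proliferating libraries for both genes, with NT3 replicate 3 the highest for each. BID, whose product links death receptors to the mitochondrion once caspase-8 cuts it, rose from a mean of 691 ± 16.99 (n = 3) to 1207 ± 101.9 (SD, n = 6; 0.80, SE 0.07, adjusted p = 6.95e-10). BCL2L11, which codes for BIM, rose from 55.0, 56.4 and 46.9 to 82.0, 60.3 and 53.4 with NT3 and 121, 94.4 and 104.8 with NT4 (0.64, SE 0.20, adjusted p = 0.00834). Here the NT3 libraries reached into the proliferating range, and against NT3 alone the gene did not pass (0.28, adjusted p = 0.299). In bulk RNA, fewer cells that express a gene and less RNA per cell cannot be told apart.

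**Figure D1:**
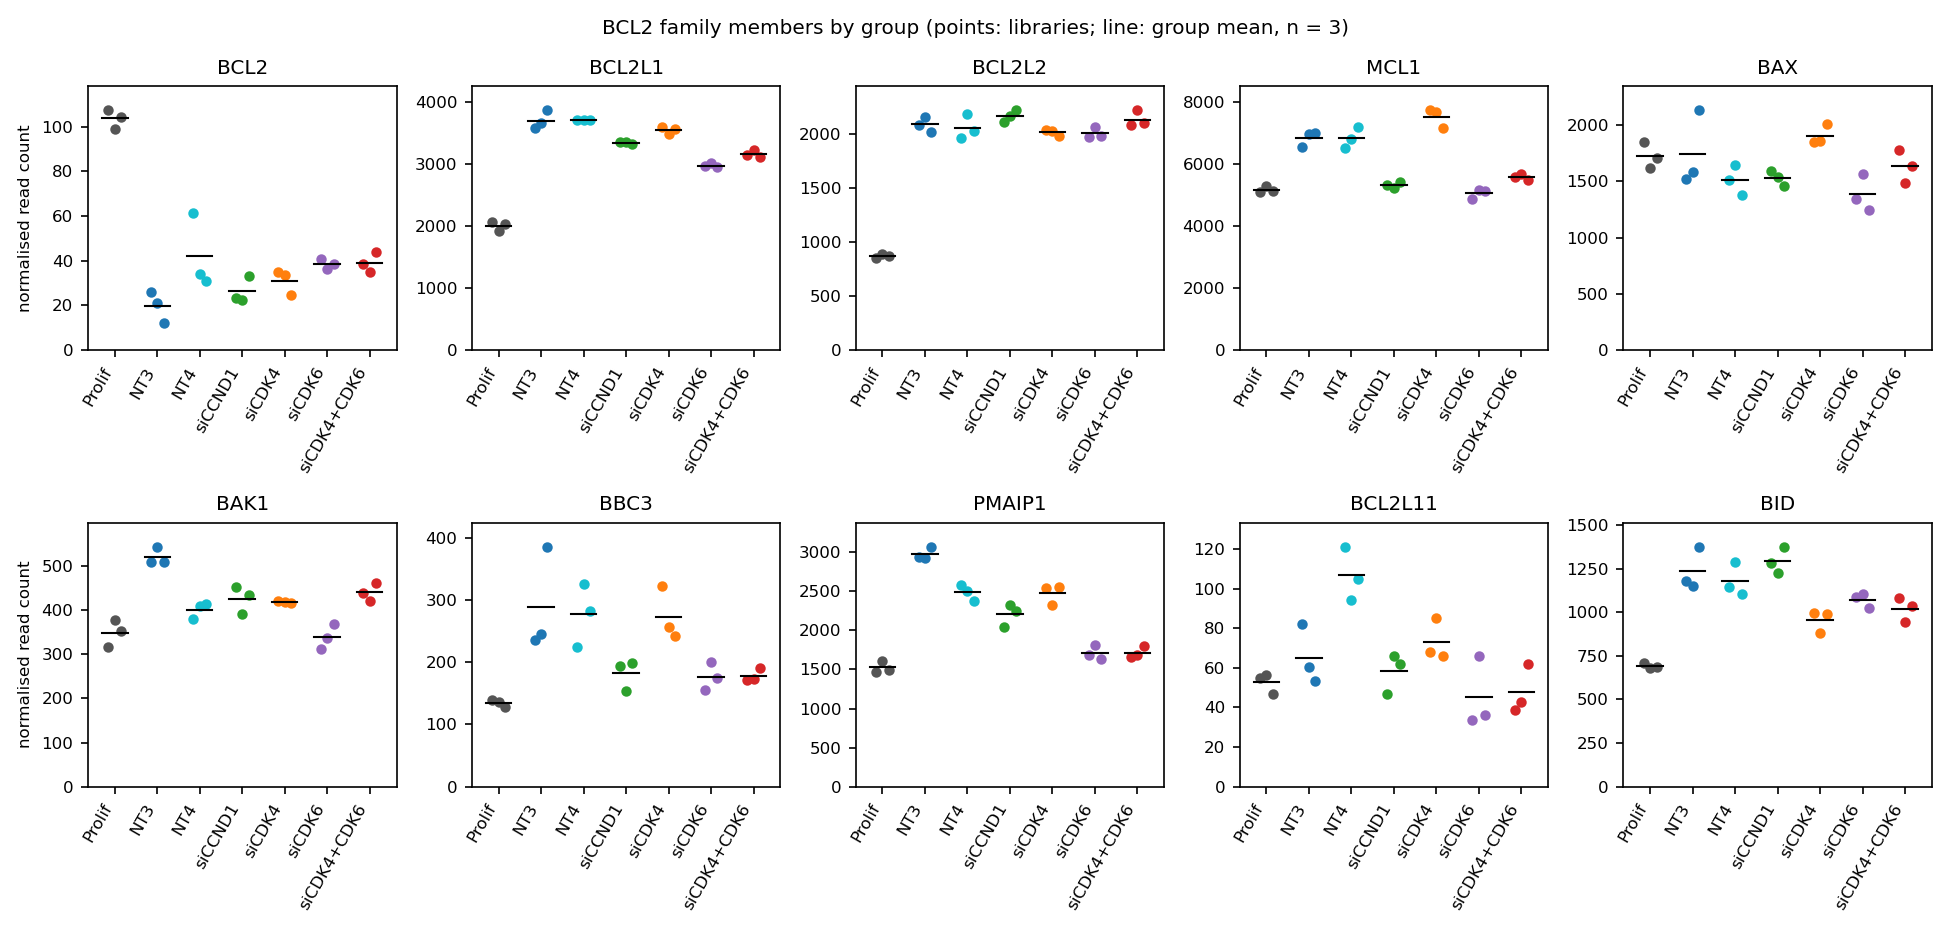
Normalised read count (vertical axes, from 0, one scale per gene) of the 10 BCL2 family members in the 7 groups; points are libraries and lines are means of 3. BCL2 is highest and BCL2L1, BCL2L2, BBC3, PMAIP1 and BID are lowest in the proliferating group. PMAIP1 in the CDK6 and dual knockdowns (means 1705 and 1715) lies nearer to the proliferating mean of 1528 than to the NT3 mean of 2980.3.

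Both non-targeting siRNAs serve as controls, yet 4 members differed between them, 2 higher and 2 lower with NT4, where 27.8% of tested genes passed. BCL2 was higher with NT4 (log2 difference 1.05, SE 0.26, adjusted p = 0.00536), a call that was lost without NT4 replicate 1 (0.75, adjusted p = 0.0516). BCL2L11 was higher with NT4 as well (0.72, SE 0.24, adjusted p = 0.0265), and it lost the call without NT3 replicate 2, NT3 replicate 3, NT4 replicate 1 or NT4 replicate 3, with values of 0.59 to 0.73. BAK1 (-0.37, SE 0.08, adjusted p = 0.00171) and PMAIP1 (-0.26, SE 0.06, adjusted p = 0.00355) were lower with NT4, and neither gene's libraries overlapped between the control siRNAs, as for 34.9% of tested genes. BCL2L1, BCL2L2, MCL1, BAX, BBC3 and BID did not pass, with differences of -0.19 (BAX) to 0.006 (BCL2L1). For BCL2, BAK1, PMAIP1 and BCL2L11 the choice of control therefore enters every knockdown difference. All 4 knockdowns were set against the same 6 control libraries, so their differences are not independent of each other.

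Of the 10 members 7 passed in CDK6 knockdown, all of them lower, against 20.8% of tested genes lower and 41.9% changed in either direction. The members' median log2 difference was -0.37, against -0.01 over all tested genes. The libraries of 28.6% of tested genes did not overlap between CDK6 knockdown and the controls. The fallen genes were BCL2L1 and MCL1 on the survival side, the effector BAK1, and all 4 BH3-only genes. PMAIP1 read 1679, 1809 and 1628, below every control library (log2 difference -0.68, SE 0.05, adjusted p = 2.86e-09), and the fall held against NT4 alone, the control with the lower PMAIP1. BBC3 read 155, 200.3 and 175, below every control library (-0.66, SE 0.15, adjusted p = 0.000982). MCL1 read 4889, 5166 and 5139.8, overlapping its proliferating values of 5095, 5310.1 and 5151 (-0.44, SE 0.04, adjusted p = 7.61e-08). BCL2L1 read 2977, 3018 and 2952, between the control and proliferating ranges (-0.32, SE 0.04, adjusted p = 1.52e-06). BAK1 read 312, 336 and 369, below all controls and overlapping the proliferating libraries (-0.43, SE 0.07, adjusted p = 4.63e-05). BCL2L11 read 33.6, 66.2 and 36.4, with replicate 2 inside the control range (-0.92, SE 0.20, adjusted p = 0.00106), and against NT3 alone it did not pass (-0.56, adjusted p = 0.0576). BID read 1090.1, 1102 and 1023 and passed at the edge of the threshold (-0.17, SE 0.07, adjusted p = 0.049996). The BID call was lost without NT3 replicate 3, NT4 replicate 1, NT4 replicate 2 or any 1 of the CDK6 knockdown libraries, with values of -0.19 to -0.13, and with edgeR (-0.16, adjusted p = 0.0569). It was also lost when the compared groups were fitted alone (-0.17, adjusted p = 0.124), against NT4 alone (-0.14, adjusted p = 0.202), with median centring, with no filter on low values, with a pseudocount of 0.1 and with a replicate block from the columns' serial numbers (added after seeing the data), under 13 of 21 alternatives in all. BAX just missed the threshold (-0.23, SE 0.09, adjusted p = 0.0508) and did not pass under 13 of 21 alternatives. Under the others BAX passed as lower. These included the fits without NT3 replicate 1 (-0.27), NT3 replicate 2 (-0.26), NT4 replicate 3 (-0.26) or CDK6 knockdown replicate 2 (-0.32). They also included the fit against NT3 alone (-0.33, adjusted p = 0.0158). BCL2L2 (-0.046, SE 0.04, adjusted p = 0.438, 95% interval -0.14 to 0.05) did not pass.

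In the dual knockdown 6 members passed, all of them lower, against 21.5% of tested genes lower and 22.5% higher, with a median of -0.23 over the members and 0.00 over all tested genes. PMAIP1 read 1653, 1687 and 1804 (log2 difference -0.67, SE 0.05, adjusted p = 2.03e-09) and BBC3 read 171, 174 and 190.2 (-0.64, SE 0.15, adjusted p = 0.00117), each below every control library, where 28.3% of tested genes did not overlap. MCL1 read 5603, 5688 and 5489.9 (-0.29, SE 0.04, adjusted p = 1.2e-05) and BCL2L1 read 3147, 3239.8 and 3116 (-0.23, SE 0.04, adjusted p = 6.69e-05), also below every control library. BID read 1081, 946 and 1037 (-0.24, SE 0.07, adjusted p = 0.00644), and the call was lost without dual knockdown replicate 2 (-0.19, adjusted p = 0.0597). BCL2L11 read 38.6, 42.6 and 62.1, overlapping NT3 (-0.81, SE 0.20, adjusted p = 0.00286), and it did not pass against NT3 alone (-0.45, adjusted p = 0.128). BCL2 read 38.6, 34.9 and 44.05 and did not pass against the controls together (0.49, SE 0.23, adjusted p = 0.0912). Its value was 1.01, adjusted p = 0.00372 against NT3 alone and -0.037, adjusted p = 0.927 against NT4 alone. In CDK6 knockdown BCL2 did not pass either, with 0.46, SE 0.23, adjusted p = 0.11 against both controls, 0.99 against NT3 alone and -0.060 against NT4 alone. BCL2 passed as higher without NT3 replicate 1 (0.57 in CDK6 and 0.59 in dual knockdown) or without NT4 replicate 1 (0.61 and 0.64).

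In CCND1 knockdown 4 members passed, all of them lower, against 14.4% of tested genes lower and 31.0% changed in either direction, with a median of -0.13 over the members and -0.01 over all tested genes. MCL1 had the smallest adjusted p: it read 5324, 5225 and 5435, with no overlap with the controls, as for 21.2% of tested genes (log2 difference -0.36, SE 0.04, adjusted p = 2.31e-06). BBC3 read 194, 154 and 199 (-0.62, SE 0.15, adjusted p = 0.00273) and PMAIP1 read 2049, 2325 and 2249 (-0.30, SE 0.05, adjusted p = 0.000205), all below the control range. The PMAIP1 difference against NT4 alone did not pass (-0.17, adjusted p = 0.0537). BCL2L1 read 3359.5, 3364 and 3328, a small shift with little spread (-0.15, SE 0.04, adjusted p = 0.0066), and did not pass when these groups were fitted alone (-0.15, adjusted p = 0.0718). BID read 1280.4, 1225 and 1377, overlapping the control range, and did not pass (0.10, SE 0.07, adjusted p = 0.264). BCL2L11 did not pass (-0.51, SE 0.20, adjusted p = 0.0612), nor did it under 16 of 20 alternatives. It passed as lower under the others, among them the fit without NT3 replicate 3 (-0.58, adjusted p = 0.029). Against NT4 alone it was -0.87, adjusted p = 0.0116, and against NT3 alone -0.15, adjusted p = 0.641.

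CDK4 knockdown changed 2 members, MCL1 higher and BID lower, where 16.0% of tested genes passed. BID read 998, 881 and 990.3, below all 6 control libraries, where 11.2% of tested genes did not overlap (log2 difference -0.33, SE 0.07, adjusted p = 0.00153). MCL1 read 7756, 7680.2 and 7181, with replicate 3 inside the control range (0.14, SE 0.04, adjusted p = 0.0353). The MCL1 call was lost without NT3 replicate 1, NT4 replicate 1, NT4 replicate 2, CDK4 knockdown replicate 1 or CDK4 knockdown replicate 2, with values of 0.12 to 0.14. It was also lost when the compared groups were fitted alone (0.14, adjusted p = 0.212), against NT3 alone (0.14, adjusted p = 0.051) and against NT4 alone (0.14, adjusted p = 0.0833), under 8 of 21 alternatives in all. BAX read 1848, 1855 and 2005 and did not pass (0.24, SE 0.09, adjusted p = 0.0855), but did without NT3 replicate 3 (0.31, adjusted p = 0.0012) and against NT4 alone (0.34, adjusted p = 0.0434). PMAIP1 read 2543, 2325 and 2559 and did not pass against both controls (-0.14, SE 0.05, adjusted p = 0.0881), though it did against NT3 alone (-0.27, adjusted p = 0.00294). BBC3, at 322, 256 and 241, overlapped the controls (-0.037, SE 0.15, adjusted p = 0.9, 95% interval -0.34 to 0.26).

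**Figure D2:**
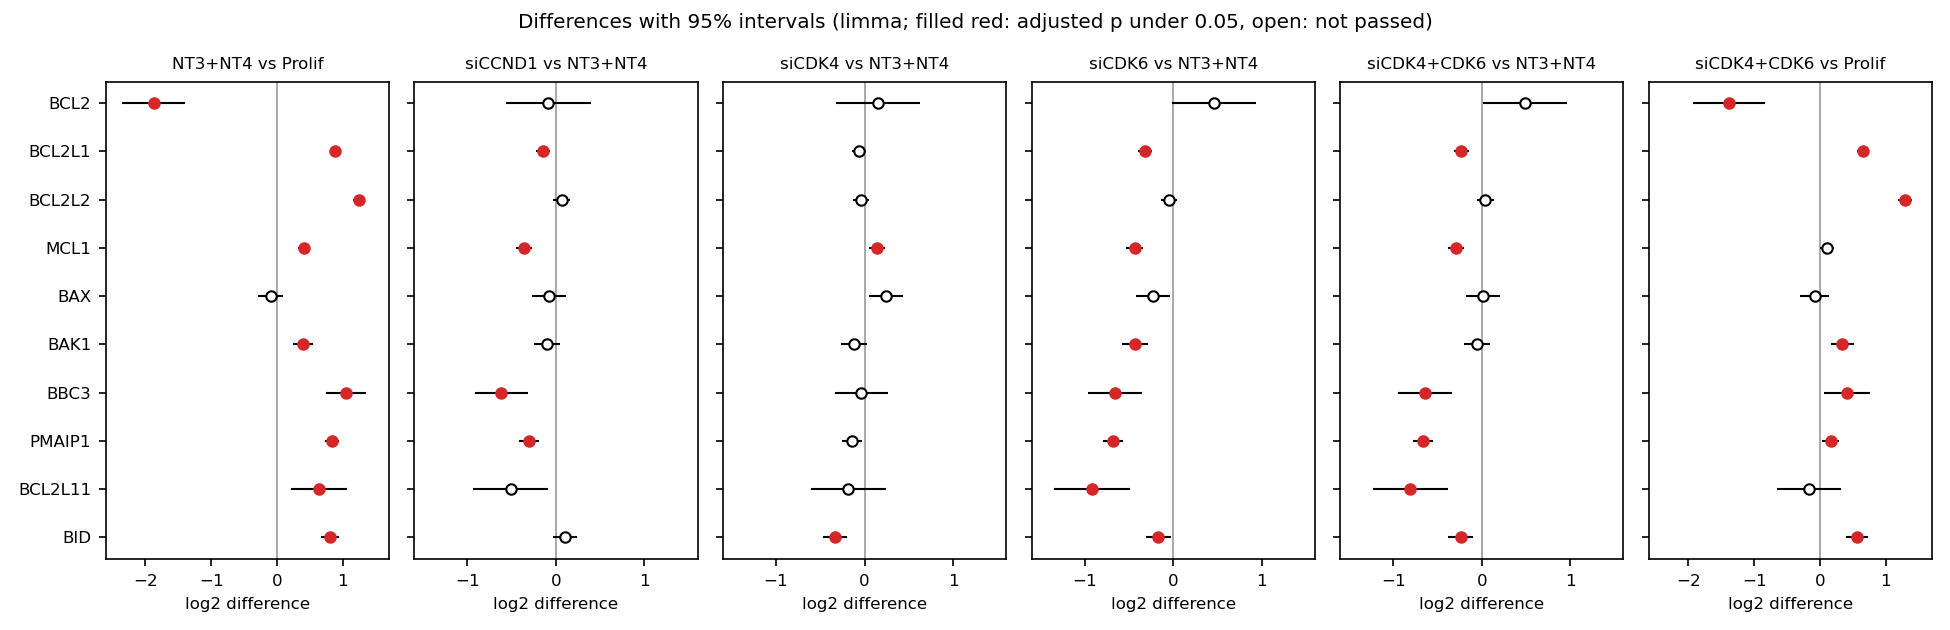
Log2 difference (horizontal axis) of each member with 95% intervals, where filled points passed an adjusted p of 0.05 (limma). The 4 middle panels show the knockdowns relative to both control siRNAs averaged (n = 3 against 6). The first panel shows the controls (n = 6) and the last the dual knockdown (n = 3), each against the proliferating group (n = 3) on a wider axis. PMAIP1 lies at -0.68 and -0.67 in the CDK6 and dual knockdowns and at -0.14 in CDK4 knockdown.

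**Figure D3:**
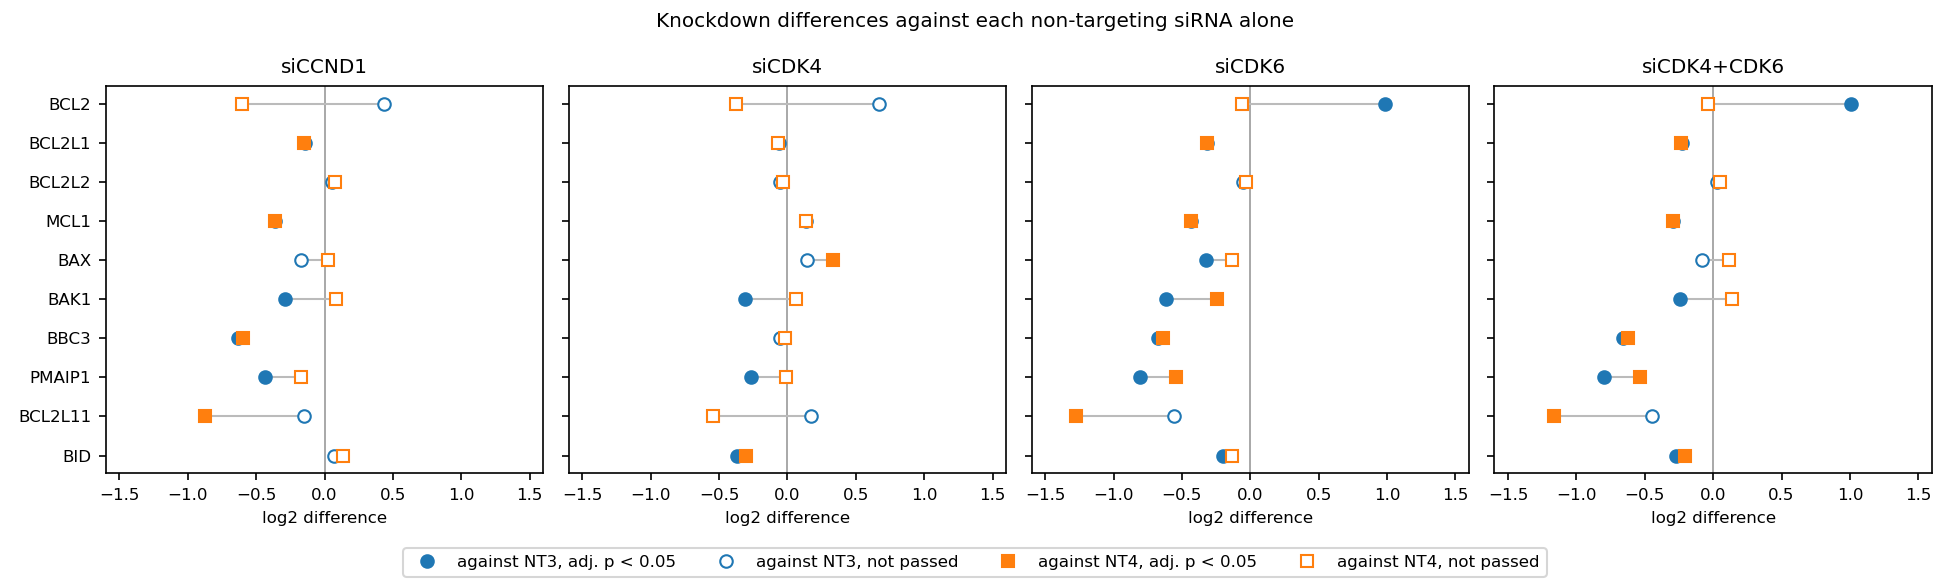
Log2 difference (horizontal axis) of each member in the 4 knockdowns against NT3 alone (circles) and NT4 alone (squares), joined by a line; filled symbols passed an adjusted p of 0.05 (limma, n = 3 against 3). MCL1, BCL2L1 and BBC3 nearly coincide, while BCL2, BAK1, PMAIP1 and BCL2L11 lie apart, as in dual knockdown BCL2 with 1.01 and -0.037.

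BAK1 depended on the control in 3 of the 4 knockdowns. In CCND1 knockdown BAK1 was lower than with NT3 (-0.29, adjusted p = 0.00769) and stood at 0.083 against NT4. In CDK4 knockdown the values were -0.31, adjusted p = 0.0075 against NT3 and 0.063 against NT4. In dual knockdown they were -0.24, adjusted p = 0.0211 against NT3 and 0.13 against NT4. None of the 3 differences passed against both controls together. BCL2L2, the BCL-W gene, is the member whose irradiated groups were closest together: the highest group mean, in CCND1 knockdown, was 1.08 times the lowest, in CDK6 knockdown, and no knockdown passed.

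Set directly against CDK4 knockdown, CDK6 knockdown had lower RNA of 7 members, the ones that passed, where 17.3% of tested genes were lower and 34.8% changed in either direction. MCL1 differed with the smallest adjusted p (log2 difference -0.57, SE 0.05, adjusted p = 1.5e-08), followed by PMAIP1 (-0.54, SE 0.06, adjusted p = 6.95e-07). BCL2L1 (-0.25, SE 0.05, adjusted p = 0.000165), BAX (-0.47, SE 0.11, adjusted p = 0.00155), BAK1 (-0.31, SE 0.08, adjusted p = 0.00547) and BBC3 (-0.62, SE 0.17, adjusted p = 0.00605) were also lower with CDK6 knockdown. This is the comparison in which both effectors passed, and it does not use the control libraries as a reference. BCL2L11 passed too (-0.73, SE 0.24, adjusted p = 0.0187), though its libraries overlapped, unlike those of the other 6 and of 51.7% of tested genes, and the call was lost without CDK4 knockdown replicate 2, CDK6 knockdown replicate 1 or CDK6 knockdown replicate 3, with values of -0.62 to -0.55. BCL2 (0.32, SE 0.26, adjusted p = 0.388), BCL2L2 (-0.005, SE 0.05, adjusted p = 0.955) and BID (0.17, SE 0.08, adjusted p = 0.107) did not pass. CCND1 knockdown differed from the dual knockdown in 2 members, both higher, where 11.2% of tested genes were higher and 20.3% changed in either direction. These were the BH3-only genes PMAIP1 (0.36, SE 0.06, adjusted p = 0.000205) and BID (0.34, SE 0.08, adjusted p = 0.00298), without overlap between the libraries, as for 40.9% of tested genes. MCL1 (-0.070, SE 0.05, adjusted p = 0.367, 95% interval -0.17 to 0.03) and BBC3 (0.023, SE 0.17, adjusted p = 0.947, 95% interval -0.33 to 0.37) did not pass.

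The dual knockdown was also compared with the sum of the single CDK4 and CDK6 differences. With both controls averaged, BAK1 alone among the members departed from the sum, where 2.63% of tested genes departed upwards and 6.35% in either direction. It stood 0.50, SE 0.11, adjusted p = 0.00591 above the sum (95% interval 0.28 to 0.73). BAK1 read 421, 419 and 416 with CDK4 knockdown, 312, 336 and 369 with CDK6 knockdown and 438, 421 and 462 with both. With NT4 alone as the control the departure was 0.32, adjusted p = 0.151. For PMAIP1 the departure was 0.15, SE 0.08, adjusted p = 0.316 and for MCL1 0.007, SE 0.07, adjusted p = 0.969, and neither passed. The PMAIP1 departure was 0.28, adjusted p = 0.0351 with NT3 alone and 0.017, adjusted p = 0.958 with NT4 alone. Against proliferating cells the dual knockdown still had higher RNA of 6 members and lower RNA of 1, where 65.6% of tested genes passed. BCL2L2 (1.29, SE 0.05, adjusted p = 2.82e-15) and BCL2L1 (0.66, SE 0.05, adjusted p = 3.16e-11) stayed well above the proliferating libraries, and BCL2 (-1.39, SE 0.26, adjusted p = 9.26e-05) stayed below them. BID (0.56, SE 0.08, adjusted p = 1.74e-06) and BAK1 (0.34, SE 0.08, adjusted p = 0.001) were higher as well. PMAIP1 (0.17, SE 0.06, adjusted p = 0.0235) and BBC3 (0.41, SE 0.17, adjusted p = 0.0382) passed with smaller differences. The PMAIP1 call was lost without proliferating replicate 1, proliferating replicate 3 or dual knockdown replicate 3 (values of 0.13 to 0.15), and the BBC3 call was lost without any 1 of these groups' 6 libraries (values of 0.36 to 0.44). MCL1 did not pass (0.11, SE 0.05, adjusted p = 0.0611), nor did it under 11 of 15 alternatives. Under the others it passed as higher, and its values over all alternatives were 0.097 to 0.24. Among those passing was median centring (0.24, adjusted p = 0.000305), which moved the median of all tested genes from 0.00 to 0.13.

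Ranked by mean, the groups fell in a similar order for several members but with few clear steps. CDK6 knockdown had the lowest irradiated mean for 8 members, the exceptions being BCL2, lowest with NT3, and BID, lowest with CDK4 knockdown. Of these 8, BCL2L2 and BAX did not pass in CDK6 knockdown. The order was not taken over all tested genes. No all-gene share therefore stands beside this count or the steps below, and neither can be called particular to the family. For BCL2L1 the order was NT4, NT3, CDK4, CCND1, dual, CDK6 and proliferating, and only NT4 with NT3 and NT3 with CDK4 knockdown overlapped between neighbours. For PMAIP1 the order was NT3, NT4, CDK4, CCND1, dual, CDK6 and proliferating, with overlap between NT4 and CDK4 knockdown and between dual and CDK6 knockdown. For MCL1 CDK4 knockdown came first, then NT3, NT4, dual, CCND1, proliferating and CDK6 knockdown, with overlap between NT3 and NT4, between CCND1 knockdown and proliferating, and between proliferating and CDK6 knockdown. For BBC3 the order was NT3, NT4, CDK4, CCND1, dual, CDK6 and proliferating, and clear steps lay only between CDK4 and CCND1 knockdown and between CDK6 knockdown and proliferating. For BAK1 the order was NT3, dual, CCND1, CDK4, NT4, proliferating and CDK6 knockdown, with overlap between dual and CCND1, CCND1 and CDK4, and proliferating and CDK6. For BID the order was CCND1, NT3, NT4, CDK6, dual, CDK4 and proliferating, with clear steps only after NT4 and before proliferating. For BCL2 the proliferating group came first, then NT4, dual, CDK6, CDK4, CCND1 and NT3, with clear steps after proliferating and between CDK6 and CDK4 knockdown. For BCL2L11 NT4 came first, then CDK4, NT3, CCND1, proliferating, dual and CDK6, and NT4 against CDK4 knockdown was the clear step. For BCL2L2 the 6 irradiated groups overlapped from one neighbour to the next, and for BAX all 7 groups did.

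To set the survival and death sides against each other within a library, log2 ratios of 4 pairs were taken relative to the mean of the proliferating libraries; they are a description, with no test. BCL2 to BAX was lower in every irradiated group, from -2.39 ± 0.80 (mean ± SD, n = 3) with NT3 to -1.08 ± 0.23 with CDK6 knockdown, and NT4 stood at -1.15 ± 0.52. BCL2L1 to BAK1 was higher in every irradiated group, from 0.30 ± 0.09 with NT3 to 0.69 ± 0.06 with NT4, with the 4 knockdown means between them. The control siRNAs thus marked both ends of this ratio. MCL1 to PMAIP1, the gene of a survival protein against that of its BH3-only antagonist, was -0.56 ± 0.05 with NT3, -0.30 ± 0.13 with NT4 and -0.49 ± 0.10 with CCND1 knockdown. It was -0.16 ± 0.12 with CDK4, -0.19 ± 0.08 with CDK6 and -0.06 ± 0.09 with dual knockdown, so the dual mean was nearest to the proliferating ratio. The dual libraries, at -0.158 to -0.003, overlapped those of CDK4 (-0.274 to -0.040) and CDK6 knockdown (-0.249 to -0.105). BCL2L1 to BCL2L11 was 0.60 ± 0.37 with NT3, -0.11 ± 0.18 with NT4, 0.85 ± 0.51 with CDK6 knockdown and 0.82 ± 0.37 with dual knockdown, with wide spread between libraries.

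**Figure D4:**
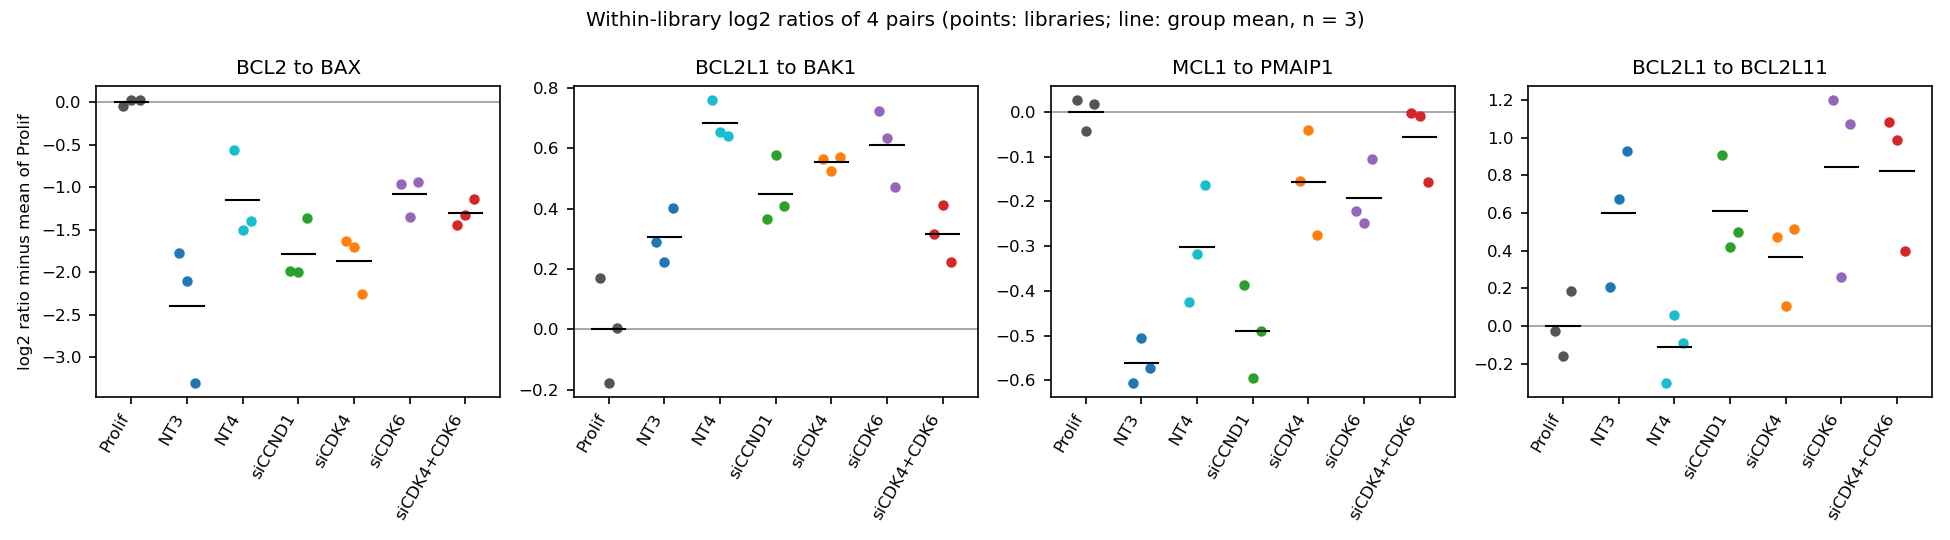
Log2 ratio of 4 gene pairs within each library, minus the mean of the proliferating libraries (vertical axes, one scale per pair); points are libraries and lines are means of 3. BCL2 to BAX lies below 0 and BCL2L1 to BAK1 above 0 in every irradiated library, and MCL1 to PMAIP1 runs from -0.56 with NT3 to -0.06 with dual knockdown.

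Across the 18 irradiated libraries, BCL2L1 and PMAIP1 moved most closely together among the members (Pearson r = 0.92), followed by MCL1 and BBC3 (0.85), BCL2L1 and MCL1 (0.84) and BCL2L1 and BBC3 (0.82). So 2 survival genes, BCL2L1 and MCL1, ran in the same direction as the BH3-only genes PMAIP1 and BBC3 over these libraries. BCL2 ran against BAK1 (-0.57) and PMAIP1 (-0.54). These correlations describe 6 groups of 3 libraries that share their cell line, knockdowns and size factors. Of all tested genes, those most like each member over the same libraries were HBEGF (0.97) and NOP56 (0.96) for BCL2L1, STX3 (0.96) and VGF (0.94) for MCL1, CCDC40 (0.90) and ARHGAP20 (0.87) for BCL2, and SLC20A2 (0.79) and FZD4 (0.78) for BCL2L2. For the effectors they were PCBP1 (0.93) and HNRNPAB (0.88) for BAX, and SLC7A5 (0.92) and STC2 (0.87) for BAK1. For the BH3-only genes they were SNAPC1 (0.97) and RELB (0.96) for PMAIP1, BCL3 (0.89) and FXR2 (0.89) for BBC3, MAP2K6 (0.90) and KLHL4 (0.83) for BCL2L11, and CCL2 (0.90) and SEZ6L2 (0.89) for BID.

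Of 13 other family genes, 8 were tested; BCL2L10, BCL2L14, BIK and HRK fell under the filter and BCL2L15 was not used here. Their median log2 difference was 0.25 with senescence and -0.037, 0.004, -0.10 and 0.13 in the CCND1, CDK4, CDK6 and dual knockdowns, where the medians of all tested genes lay between -0.03 and 0.00. In senescent controls against proliferating cells 5 were higher and 3 lower. With CCND1 knockdown 2 were higher and 2 lower, with CDK4 knockdown 2 higher, with CDK6 knockdown 2 higher and 4 lower, and with dual knockdown 3 higher and 3 lower. Of all tested genes, 32.6% were higher and 36.1% lower with senescence, 31.0%, 16.0% and 41.9% changed in either direction in the CCND1, CDK4 and CDK6 knockdowns, and 22.5% were higher and 21.5% lower in the dual knockdown. BCL2A1, a survival gene induced by NF-kB, had 0 or 1 read per proliferating library and a mean of 38.5 ± 14.0 with NT3 and 13.9 ± 4.81 with NT4 (SD, n = 3 each). It fell with CCND1 (log2 difference -1.75, SE 0.58, adjusted p = 0.0261), CDK6 (-2.91, SE 0.58, adjusted p = 0.000384) and dual knockdown (-2.96, SE 0.58, adjusted p = 0.000298), though against NT4 alone the CCND1 difference did not pass (-1.05, adjusted p = 0.302). BMF, a BH3-only gene, rose with senescence (0.56, SE 0.13, adjusted p = 0.000931) and fell with CCND1 (-0.80), CDK6 (-0.45) and dual knockdown (-0.73). Its CDK6 difference did not pass against NT3 alone (-0.36, adjusted p = 0.0609) and passed against NT4 alone (-0.53, adjusted p = 0.0125). BCL2L12 was lower in senescent than in proliferating cells (-1.14, SE 0.13, adjusted p = 5.28e-08) and lower again with CDK6 (-0.61) and dual knockdown (-0.52). BOK, an effector-like gene, was higher with CCND1 knockdown (0.30, SE 0.07, adjusted p = 0.00273), but not there alone. In dual knockdown BOK stood at 0.34, adjusted p = 0.00161 against NT3 alone and 0.44, adjusted p = 0.00017 against NT4 alone. In CDK6 knockdown these values were 0.19, adjusted p = 0.0569 and 0.29, adjusted p = 0.00775. With CDK4 knockdown the risen genes were BNIP3 (0.31) and BNIP3L (0.20), which act in the removal of mitochondria. BNIP3 was itself lower with NT4 than with NT3 (-0.54, SE 0.09, adjusted p = 0.000179), and its CDK4 difference was 0.037, adjusted p = 0.812 against NT3 alone and 0.58, adjusted p = 0.000203 against NT4 alone. For BNIP3L these values were 0.26, adjusted p = 0.000626 and 0.14, adjusted p = 0.0685.

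Of 18 genes that act after the outer membrane opens, such as caspases and their inhibitors, 6 were higher and 6 lower in senescent controls than in proliferating cells. This group's median log2 difference was 0.038 with senescence and -0.002, 0.12, -0.043 and 0.071 in the CCND1, CDK4, CDK6 and dual knockdowns, where the medians of all tested genes lay between -0.03 and 0.00. With CCND1 knockdown 4 were higher and 3 lower, with CDK4 knockdown 5 and 1, with CDK6 knockdown 3 and 6, and with dual knockdown 6 and 4, beside all-gene shares of 32.6% higher and 36.1% lower with senescence, 31.0%, 16.0% and 41.9% changed in the single knockdowns in that order, and 22.5% higher and 21.5% lower in the dual knockdown. BIRC3, a ubiquitin ligase of the inhibitor-of-apoptosis family, rose with senescence (2.51, SE 0.13, adjusted p = 3.64e-13) and fell with CCND1 (-0.66), CDK6 (-1.76) and dual knockdown (-1.73). BIRC5, survivin, which peaks in dividing cells, fell with senescence (-2.24, SE 0.12, adjusted p = 2.85e-13) and further with CCND1 (-0.95), CDK6 (0.500 times the control level) and dual knockdown (-3.08). APAF1, the scaffold of the apoptosome, was lower in the senescent controls (-1.21, SE 0.09, adjusted p = 9.1e-11) and passed as higher in all 4 knockdowns against both controls averaged, from 0.66 with CDK6 to 0.92 with CDK4 knockdown. Its control means were far apart, 329 ± 43.98 with NT3 and 818 ± 96.95 with NT4 (SD, n = 3 each), a difference of 1.31, SE 0.10, adjusted p = 8.39e-09. The size of the APAF1 fall with senescence therefore depends on the control siRNA as well. Against NT4 alone no knockdown passed for APAF1, with values from 0.00079, adjusted p = 0.996 in CDK6 to 0.26, adjusted p = 0.113 in CDK4 knockdown, while against NT3 alone all 4 passed, from 1.31, adjusted p = 2.28e-09 in CDK6 to 1.58, adjusted p = 5.82e-10 in CDK4 knockdown. XIAP, the caspase inhibitor, had the same pattern between the controls (0.78, SE 0.08, adjusted p = 5.55e-07) and in CDK4 knockdown stood 0.37 above both controls averaged. The XIAP means were 947 ± 147 with NT3, 1614 ± 46.6 with NT4 and 1587 ± 89.9 with CDK4 knockdown, so its CDK4 difference was 0.76, adjusted p = 1.12e-06 against NT3 alone and -0.025, adjusted p = 0.901 against NT4 alone. In the CCND1, CDK6 and dual knockdowns XIAP had like means of 1563 ± 13.3, 1639 ± 81.1 and 1596 ± 130.5.

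Of 15 upstream regulators of the members, 14 were tested, TP73 falling under the filter, and 5 were higher and 5 lower with senescence. The regulators' median log2 difference was -0.002 with senescence and -0.044, -0.026, -0.30 and -0.16 in the CCND1, CDK4, CDK6 and dual knockdowns, where the medians of all tested genes lay between -0.03 and 0.00. With CCND1 knockdown 1 was higher and 5 lower, with CDK6 knockdown 7 were lower, and with dual knockdown 3 were higher and 5 lower. The shares of all tested genes were 32.6% higher and 36.1% lower with senescence, 14.4% lower with CCND1 knockdown, 20.8% lower with CDK6 knockdown, and 22.5% higher and 21.5% lower with dual knockdown. MDM2, a ubiquitin ligase gene induced by DNA damage, rose with senescence (1.68, SE 0.05, adjusted p = 5.39e-17) and fell with CCND1 (-0.39), CDK6 (-0.59) and dual knockdown (-0.71). DDIT3, the stress factor CHOP, fell with CCND1 (-0.84), CDK6 (-1.07, SE 0.09, adjusted p = 5.51e-09) and dual knockdown (-1.13). E2F1, a cell cycle factor that can induce BH3-only genes, fell with senescence (-1.71, SE 0.10, adjusted p = 1.22e-12) and again with CCND1 (-0.64), CDK6 (-0.96) and dual knockdown (-1.30). FOXO1, a factor known to induce BCL2L11, had 1 to 3 reads per proliferating library and was higher in senescent controls (2.72, SE 0.43, adjusted p = 7.9e-06). MYC was lower with NT4 than with NT3 (-0.48, SE 0.13, adjusted p = 0.00922).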

How the data were processed

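RNA of 21 IMR90 libraries was sequenced after poly(A) capture. The deposited table holds 1 signal per gene and library, named normalised counts per the file headers: the authors divided read counts by 1 size factor per library, and 100% of values returned whole reads within 0.01 read. The submitters' processing notes list Trimmomatic 0.38.1, HISAT2 2.2.1, featureCounts 2.0.3, DESeq2 2.11.40.8 and the build GRCh38 (hg38), with no settings. A gene was tested if 3 or more libraries reached a value of 10 (11579 genes). Values were put on the log2(value + 1) scale (pseudocount 1) and fitted with limma 3.58.1 (R 4.3.3), with 1 mean per group over all 21 libraries and a trended variance. All tests are two-sided with Benjamini-Hochberg adjustment over the tested genes in each of 10 comparisons (threshold 0.05). This scale understates changes of low genes. SEs and 95% intervals come from the same fit. As alternatives, edgeR 4.0.16 and DESeq2 1.42.0 were run on the recovered whole reads, along with other pseudocounts, filters, scalings, controls and sets of libraries. edgeR called 7984 genes in senescent controls against proliferating cells, and 3616, 1934, 4922 and 5081 in the CCND1, CDK4, CDK6 and dual knockdowns. The fit was also run on simulated counts with a common spread, no library apart and no difference between NT3 and NT4. These data differ in those points, so that run does not cover them. The members, the 3 lists of related genes and the tests were chosen with earlier results of these data known. Every member is named, and of each list the at most 3 genes with the largest absolute difference among those that passed in a comparison; a few results under this rule are not reported here. Genes most like a member were the 2 highest Pearson correlations over 18 irradiated libraries. Table columns carry a group and a serial number but not the labels' replicate number, so replicate numbers follow column order. Coordinates and exon overlaps are from GENCODE 44, and promoter windows from RefSeq (GRCh38.p14).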

Additional observations from a re-analysis of the deposited data

Results flagged for a closer look

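The response of BAK1 to loss of CDK6 differed with CDK4 status: the dual knockdown stood 0.50 on the log2 scale above the sum of the single knockdown differences by a test of the difference itself (SE 0.11, limma adjusted p = 0.00591). BAK1 also differed between the non-targeting siRNAs, which enter this value as the reference. The departure was 0.69 with NT3 alone and 0.32, adjusted p = 0.151 with NT4 alone, and the part of the control siRNA in it was not tested further.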

How the results depend on the processing

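Of 100 member differences (10 members in 10 comparisons), 49 passed as reported, 34 of these passed under every alternative run, 37 under every one that left out no library and 41 under every fit without 1 library, and 0 changed sign. Of those not passing as reported, 27 changed sign and 13 passed under some alternative. With NT4 alone as control, BAK1 stood at 0.083 in CCND1, 0.063 in CDK4 and 0.13 in dual knockdown, and BCL2 at -0.060 in CDK6 and -0.037 in dual knockdown, each of opposite sign to the value against both controls. BAX in senescent controls against proliferating cells stood at 0.016 with median centring and at 0.00021 with NT3 alone, against -0.097 as reported. The count of members passing in CDK4 knockdown was 1 when only the compared groups were fitted (2 as reported). In that fit 787 of 11579 tested genes passed, against 1854 as reported. For NT4 against NT3 the count of members was 1 in such a fit and 2 among genes with a mean of at least 100 (4 as reported). Of all tested genes 955 of 11579 passed in the former and 3087 of 9109 in the latter, against 3216 of 11579 as reported. BCL2 and BCL2L11, both among the 4, have means under 100, so that filter removed them and they were not tested there. For the departure from the sum the count of members was 2 with NT3 alone and 0 with NT4 alone (1 as reported), all by limma. At an unadjusted p under 0.05 it was 3 with NT4 alone. Apart from the members that the filter removed, the cause was not tested in these cases. Without 1 library at a time the counts ranged from 9 to 10 for senescent controls against proliferating cells, 2 to 4 for NT4 against NT3, 4 to 5 for CCND1, 1 to 3 for CDK4, 6 to 9 for CDK6 and 5 to 7 for dual knockdown. They ranged from 6 to 7 for CDK6 against CDK4 knockdown and from 5 to 6 for dual knockdown against proliferating cells, and stayed at 2 for CCND1 against dual knockdown and at 1 for the departure from the sum. Median centring changed the split of all tested genes in senescent controls against proliferating cells from 3769 higher and 4176 lower to 4614 and 3355. The columns of the table do not carry the labels' replicate numbers, but their serial numbers run through the 6 irradiated groups in 3 sets. A fit with these sets as a replicate block, chosen after seeing the data and without the proliferating libraries, which are in no set, gave 4 members for NT4 against NT3, 4, 2, 6 and 6 in the CCND1, CDK4, CDK6 and dual knockdowns, 7 for CDK6 against CDK4 knockdown, 2 for CCND1 against dual knockdown and 1 for the departure from the sum. Of the members' calls only that of BID in CDK6 knockdown was lost there (-0.17, adjusted p = 0.0807). Deviations from the group means correlated by -0.11 to 0.10 within a set (median 0.037) and with a median of -0.017 between sets. Within a set 1 of 45 pairs was over 0.1, and 13 of 18 libraries were closest to their own set. These values do not settle whether the sets pair the libraries, and the reported fits used no pairing. The depth limits BCL2 and BCL2L11 most, with at most 123 reads per library.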
